A study of Mus musculus with 10 samples.

Results

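The 4 GFP arrays of a mouse series of 10 arrays were compared here, 2 of lymph node against 2 of spleen, across every gene with a probe set. They are the control arrays of a study of VAV1 mutations in T cell lymphoma. The mice of these 4 arrays were immunocompromised hosts that had been given GFP-transduced CD4+ T cells, and their tissue was taken after 6 months, as the labels describe. All 4 arrays carry the strain C57BL/10 and the genotype WT + GFP, and no lymph node site, age or type of host immune defect is given in the sources used here. The other 6 arrays come from animals that received T cells with oncogenic Vav1 (4 spleen, 2 lymph node), and they enter through the shared estimate of spread and through 1 comparison. The 4 GFP arrays come from 3 animals: CTL2 gave spleen replicate 1 and lymph node replicate 2, CTL4 gave spleen replicate 2 and CTL1 gave lymph node replicate 1. Among the oncogenic Vav1 animals, ONCO2 gave spleen replicate 2 and lymph node replicate 1. Spleen replicate 3 and lymph node replicate 2 of oncogenic Vav1 came from ONCO3. The GFP comparison asks how the tissues differed where no oncogene had been introduced.

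Spleen and lymph node are both secondary lymphoid organs, but they are built differently. The spleen filters blood: its red pulp holds red cells, platelets and iron-recycling macrophages, and its marginal zone holds a B cell subset that responds to blood-borne antigen. The lymph node filters lymph: lymphocytes enter it through high endothelial venules, lymph passes through sinuses lined by macrophages, and the node itself lies embedded in fat.

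The values are RMA values on a log2 scale, so a difference of 1 is a doubling of the signal. Their 40th percentile, below which a value is called near background in what follows, lay between 5.69 and 5.84 on the 4 GFP arrays. Of 19505 genes, 13393 lay above that percentile of their own array on at least 2 of the 10 arrays and were tested. The stated cell type is CD4+ T cells of the spleen or of the lymph node, while RNA of other cells was abundant on every GFP array. The B cell receptor component Cd79a stood at or above percentile 98.2 of all probe sets on each of the 4 arrays. The myeloid lysozyme Lyz2 stood at or above percentile 99.6, and Cd4 at 80.1 to 93.4. Other markers ranked closer together: the T cell genes Cd3e (93.2 to 97.7) and Cd8a (88.6 to 97.2), the B cell gene Ms4a1 (91 to 98) and the macrophage gene Csf1r (95.1 to 95.7). These ranks do not order the cell types. The Y-linked genes Eif2s3y (9.62 to 10.04), Uty (8.12 to 8.70) and Kdm5d (7.77 to 8.40) were above background on all 4. In such bulk samples, fewer cells of a type and less RNA per cell cannot be told apart.

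Some features of the arrays moved with the tissue or went against a label. The median of the intronic control probe sets was 5.87 and 5.69 in GFP spleen and 5.46 and 5.38 in GFP lymph node. The mean of the red cell list was 6.52 in spleen replicate 1 and 7.84 in spleen replicate 2, and that of the white fat list was 6.89 and 6.58. The libraries labelled oncogenic Vav1 lymph node held the spleen stromal transcript Coch at 8.93 and 9.64, against 8.91 to 10.03 in oncogenic Vav1 spleen, so their tissue label is in doubt. Other genes did differ from oncogenic Vav1 spleen there: the high endothelial venule gene Glycam1 by 2.05 and the white fat gene Adipoq by 4.77, both higher. The high endothelial venule list had a median difference of 0.04 in oncogenic Vav1. What tissue these libraries held was not tested. The count over all genes, and the list counts that changed most, are also given without these libraries. The labels do not say whether a sample pooled several nodes. The p-values rest on a spread between replicate arrays shared by all 4 groups, the oncogenic Vav1 arrays included. Each GFP group adds only 2 arrays to it.

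Between GFP lymph node and GFP spleen, 2377 of the 13393 genes tested differed (17.7%; limma, Benjamini-Hochberg adjusted p under 0.05). Of these, 1679 (12.5%) were higher in lymph node and 698 (5.21%) were higher in spleen. Those shares of all genes tested are the background for every list count below. The share higher in lymph node was 70.6% of those called, and 83.6% (2067 against 405) when each array was centred on its median first. Without both libraries labelled oncogenic Vav1 lymph node the count was 4066, and leaving out 1 of the 4 GFP arrays at a time gave 1156 (without spleen replicate 1), 1509 (without spleen replicate 2), 1009 (without lymph node replicate 1) and 1102 (without lymph node replicate 2). With the intronic control median as a covariate 1317 genes were called, 900 of them among the 2377. An exact permutation test of 2 arrays against 2 cannot give a two-sided p below 0.333, so no single gene was tested that way.

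**Figure D1:**
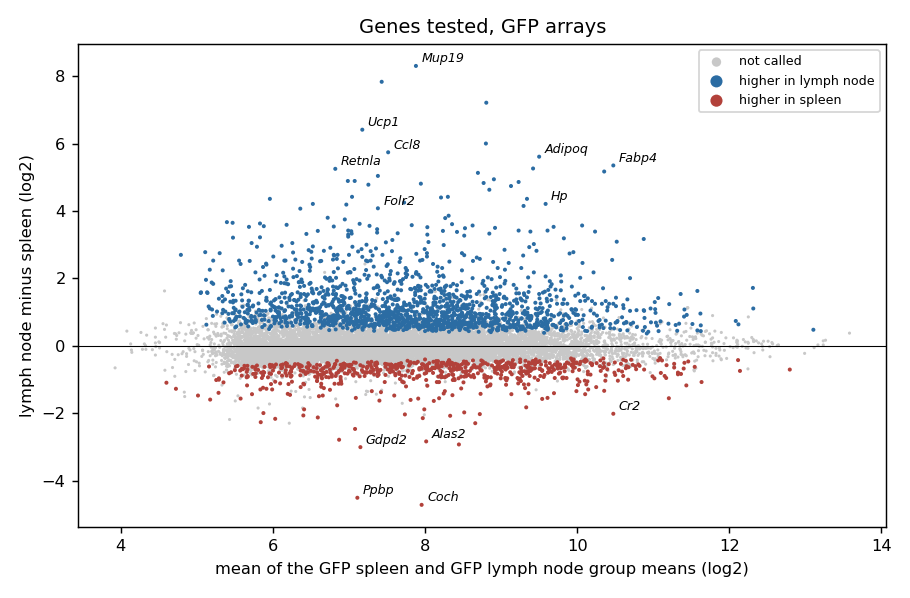
Difference between GFP lymph node and GFP spleen (log2, y axis) against the mean of both group means (log2, x axis) for the 13393 genes tested; blue and red points passed the threshold in either direction. The lymph node side reaches 8.30 (Mup19) and the spleen side -4.71 (Coch).

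The largest differences toward lymph node were those of major urinary protein genes, which encode small secreted pheromone carriers made mainly in the liver. Mup19 was 3.81 and 3.65 on the spleen arrays and 12.08 and 11.97 on the lymph node arrays, a difference of 8.30 (SE 0.47, 314-fold, adjusted p = 2.6e-06). Mup9 followed at 7.83, Mup22 at 7.21 and Mup2 at 6.00. Mup19, Mup9 and Mup22 were near background in spleen, and Mup2 (5.77 and 5.84) lay at the limit, below it on replicate 1 and above it on replicate 2. Of 9 genes of the family on the array, 5 were tested and all 5 were higher in lymph node. The liver transcript Alb, chosen after its values were seen, was 4.83 and 4.85 in spleen and 6.45 and 5.91 in lymph node (difference 1.34, adjusted p = 0.0044), and the liver transcript Apoa1 did not pass (-0.42, adjusted p = 0.34).

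Members of this family are near-identical copies on chromosome 4, so that a probe set may read several of them and the values of single members are uncertain. Their promoters show how close the copies are. The 120 bases before the start of 3 members are given below (RefSeq, GRCm38.p6, minus strand, 5′ to 3′), with the longest run that all 3 share, 45 bases, in capitals. They lie at chr4:60139857-60139976 (Mup2), chr4:60421953-60422072 (Mup9) and chr4:61782225-61782344 (Mup19).
Mup2: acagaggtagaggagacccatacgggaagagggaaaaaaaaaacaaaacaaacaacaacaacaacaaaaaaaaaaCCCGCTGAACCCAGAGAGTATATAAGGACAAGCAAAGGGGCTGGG
Mup9: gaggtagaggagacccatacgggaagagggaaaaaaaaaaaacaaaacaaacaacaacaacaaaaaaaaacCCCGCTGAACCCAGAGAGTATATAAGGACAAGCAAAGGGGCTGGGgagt
Mup19: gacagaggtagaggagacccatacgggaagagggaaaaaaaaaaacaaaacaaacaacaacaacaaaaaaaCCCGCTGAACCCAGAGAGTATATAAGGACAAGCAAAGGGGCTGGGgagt

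**Figure D2:**
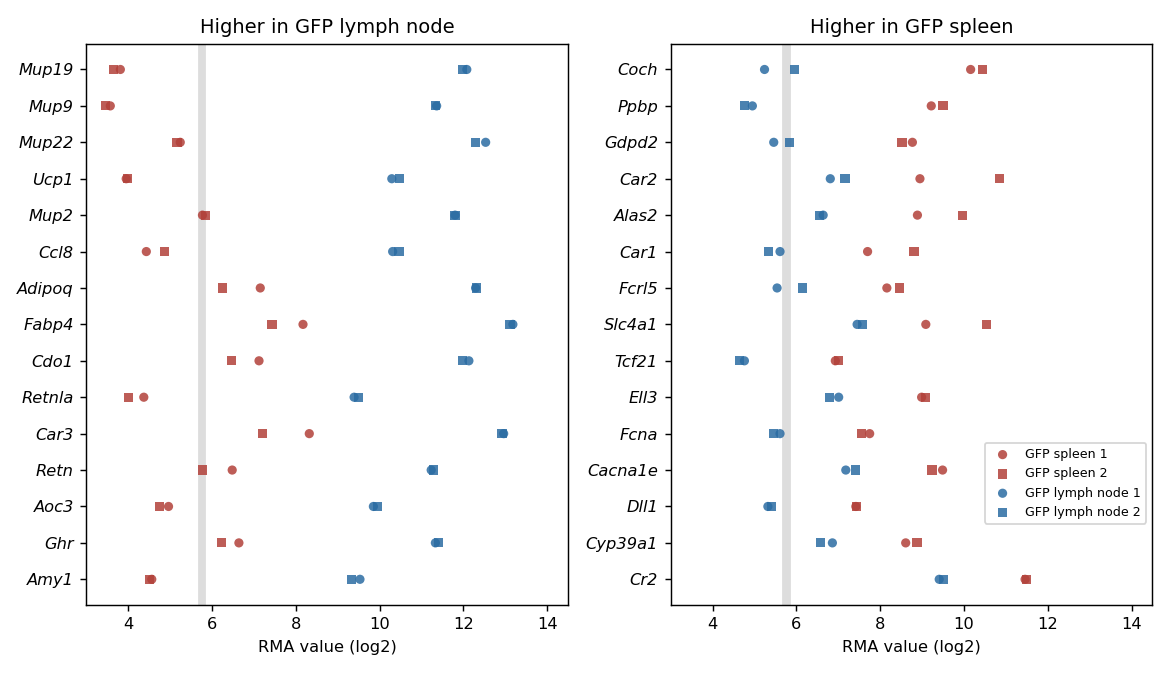
RMA value (log2) of the 15 named genes with the largest difference in each direction, on each GFP array (red, spleen; blue, lymph node; circles, replicate 1; squares, replicate 2); the grey band spans the 40th percentile of the 4 arrays. The arrays of the tissues do not overlap for any of the 30 genes, as the choice of these genes required, and spleen replicates lie far apart for Car2, Slc4a1, Alas2 and Car1.

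Of the 51 gene lists, white fat had the highest median difference toward lymph node. All 18 tested members of the white fat list were higher there, against 12.5% of all genes tested, with a median difference of 4.11 (all genes -0.01). Adipoq, which encodes the fat cell hormone adiponectin, was 7.15 and 6.24 in spleen and 12.29 and 12.32 in lymph node (difference 5.61, SE 0.47, 48.8-fold, adjusted p = 2.3e-05). Both lymph node arrays lay more than 5 above the higher spleen array. Plin1, the coat protein of lipid droplets, was 5.52 and 5.68 against 9.71 and 9.98 (difference 4.25). Fabp4, a fatty acid carrier of fat cells, was 8.17 and 7.43 against 13.18 and 13.11 (5.35). The hormone genes Lep (4.07) and Retn (5.13) rose from near or little above background. Lipe (3.39) and Pnpla2 (3.57), the main lipases that release stored fat, and Pparg (2.87), the nuclear receptor of fat cell formation, differed by less.

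The mean of the white fat list was 6.89 and 6.58 on the spleen arrays and 10.61 and 10.64 on the lymph node arrays. It thus moved with every group described below as higher in lymph node, and its part in those differences was not tested. Within CTL2, the animal that gave both tissues, the median difference of the list was 3.99.

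Brown fat transcripts were higher as well. Of 15 tested members of the thermogenic list, 11 were higher in lymph node and none in spleen (median 1.70). Ucp1, the uncoupling protein that lets brown fat mitochondria make heat, was 3.95 and 3.99 in spleen, near background, and 10.29 and 10.47 in lymph node, a difference of 6.41 (SE 0.18, 85-fold, adjusted p = 3.6e-08). The tissues lay far apart and the replicates of each lay close together. Cidea (3.40), a lipid droplet protein of brown fat, and Cox8b (3.62) and Cox7a1 (2.49), muscle and brown fat forms of cytochrome oxidase subunits, rose with it. Otop1 (2.08) and Fabp3 (2.28) did so too. The 4 members not called were the transcriptional regulators Prdm16 (-0.79), Zic1 (-0.33), Lhx8 (0.05) and Ppargc1a (0.59).

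Enzymes that make fatty acids and triglyceride followed the fat markers. Of 17 tested members, 15 were higher in lymph node (median 1.72). Fasn, fatty acid synthase, was 8.35 and 7.46 in spleen and 11.30 and 11.35 in lymph node (3.42). Dgat2, which closes triglyceride synthesis, was 7.19 and 6.40 against 11.71 and 11.60 (4.86, SE 0.33). The lipogenic regulator Thrsp (4.63), malic enzyme Me1 (4.81), glycerol phosphate dehydrogenase Gpd1 (4.36) and the elongase Elovl6 (3.30) reached like sizes. Acaca, the carboxylase of fatty acid synthesis, differed by 1.93, while its mitochondrial relative Acacb (0.39, adjusted p = 0.11) and the elongase Elovl5 (0.47, adjusted p = 0.16) were the 2 that did not pass. For Fasn, Dgat2 and Thrsp, spleen replicate 1 was above spleen replicate 2, as it was for Adipoq.

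Genes of fat breakdown and of mitochondria were also higher in lymph node, by smaller amounts. Of 16 tested genes of mitochondrial beta-oxidation, 15 were called (median 1.84): Hadh was 7.04 and 7.32 in spleen and 10.43 and 10.58 in lymph node (3.33, SE 0.26), and Acaa2 (2.82), Acadl (2.18) and Hadhb (2.02) were among the others. All 20 tested respiratory chain genes were called (median 1.16), Cox8b and Cox7a1 of the brown fat list among them. Among them, the complex III core subunit Uqcrc1 was 7.89 and 8.06 against 9.64 and 9.67 (1.68), the succinate dehydrogenase subunit Sdhb rose by 1.66 and the complex I subunit Ndufv1 by 1.25. Of 16 tricarboxylic acid cycle genes 13 were called (median 1.03), with the isocitrate dehydrogenase subunit Idh3a at 2.31 and citrate synthase Cs at 1.25. With the intronic control median as a covariate, 10 respiratory chain genes, 9 cycle genes and 15 beta-oxidation genes passed.

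Glycolysis gave fewer calls. Of 14 tested genes 4 were higher in lymph node, against 12.5% of all genes tested (median 0.84): Aldoa (1.38), Tpi1 (1.37), Ldha (1.21) and Pfkl (1.21). The count was 1 without GFP spleen replicate 1 or either GFP lymph node array, 1 with the intronic control covariate and 10 without either or both of the libraries labelled oncogenic Vav1 lymph node.

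**Figure D3:**
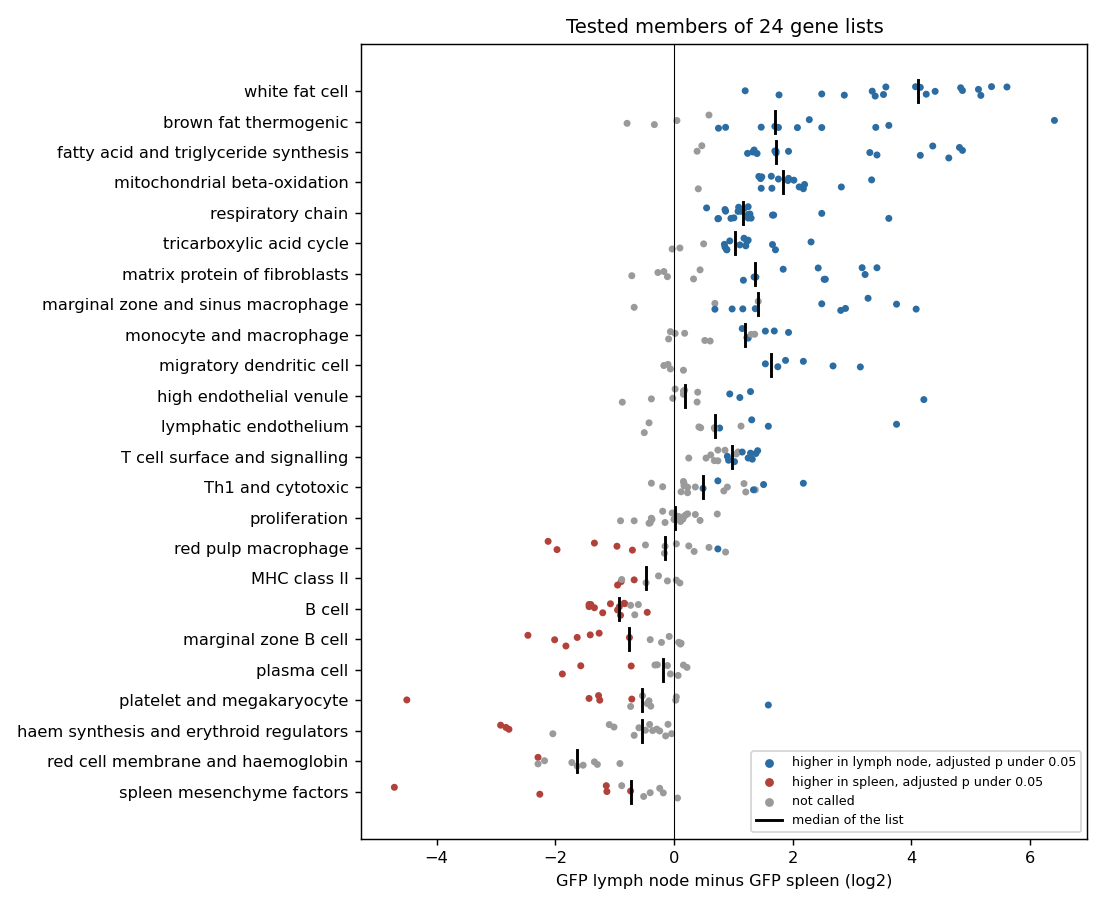
Lymph node minus spleen difference (log2) of each tested member of 24 gene lists on the GFP arrays; blue and red members passed the threshold, grey ones did not, and black ticks are list medians. List medians run from 4.11 (white fat) to -1.63 (red cell), and only 1 of the 9 red cell members passed although all 9 lie left of 0.

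Connective tissue genes split by kind. Of 16 tested matrix proteins of fibroblasts 10 were higher in lymph node and none in spleen (median 1.36). Dpt, dermatopontin, was 7.30 and 7.73 in spleen and 10.90 and 10.97 in lymph node (3.42), and the collagen-binding proteoglycans Lum (3.22) and Dcn (3.17) were close to it. Of 15 tested collagen chains 5 were higher in lymph node and 1 in spleen, against 12.5% and 5.21% of all genes tested. Col3a1, the chain of type III collagen, was 6.66 and 6.85 against 9.68 and 9.80 (2.99, SE 0.18), while the basement membrane chain Col4a1 did not pass (0.26, adjusted p = 0.19). The chain higher in spleen was Col6a4 (-0.73). Leaving out GFP spleen replicate 1 or either GFP lymph node array left 3 collagen chains higher in lymph node, and the intronic control covariate left 2.

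Macrophage genes listed together for the marginal zone and for sinuses were mostly higher in lymph node. Of 13 tested members of the list of marginal zone and sinus macrophages, 10 were higher in lymph node and none in spleen (median 1.42). Folr2, a folate receptor of tissue macrophages, was 5.38 and 5.31 in spleen and 9.51 and 9.34 in lymph node (4.08, SE 0.17, 16.9-fold, adjusted p = 4.5e-07), and its spleen values were near background. Cd209b, the lectin SIGN-R1, was 7.12 and 6.64 against 10.17 and 10.13 (3.27), and the related lectins Cd209f (2.89) and Cd209g (2.49) went with it. These lectin genes are close relatives, and their probe sets may share signal. Siglec1, the sialoadhesin of subcapsular and metallophilic macrophages, rose by 1.16 and Timd4, a receptor for dying cells, by 0.98. Marco, a scavenger receptor of marginal zone macrophages, was 8.54 and 8.73 against 9.42 and 9.24 and did not pass (0.69, adjusted p = 0.21).

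General monocyte and macrophage genes gave 6 of 14 calls, all higher in lymph node, where 12.5% of all genes tested were. The chemokine receptor Ccr2 (1.69), Ly6c2 (1.25) and the lipopolysaccharide receptor Cd14 (1.15) passed, while the growth factor receptor Csf1r did not (0.02, adjusted p = 0.97). Without GFP spleen replicate 1, lymph node replicate 1 or lymph node replicate 2 the count was 2, without spleen replicate 2 it was 3, and without either or both of the libraries labelled oncogenic Vav1 lymph node it was 10. It was 2 with the intronic control covariate. Retnla, a secreted product of alternatively activated macrophages that is also made in fat, was 4.37 and 4.01 against 9.39 and 9.50 (5.25).

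Migratory dendritic cells carry antigen from tissue to the node through lymph. Of 10 tested genes listed for them, 6 were higher in lymph node, against 12.5% of all genes tested (median 1.64). Ccl22, a chemokine of mature dendritic cells, was 5.79 and 6.22 in spleen and 8.96 and 9.32 in lymph node (3.14, SE 0.19). Fscn1, the actin bundler of migrating dendritic cells, rose by 2.68, Tmem150c by 1.88, Socs2 by 1.75 and Apol7c by 1.54. The remaining call was Ccl5 (2.18), which the Th1 and cytotoxic list shares. The 4 members not called were Ccr7 (0.16), Ccl17 (-0.17), Cd207 (-0.06) and Epcam (-0.1). Of 12 tested genes of resident dendritic cells, 4 were higher in lymph node, among them the chemokine receptor Xcr1 (1.36) and Cd8a, which T cells share. That count was 2 without GFP spleen replicate 1, lymph node replicate 2, or oncogenic Vav1 spleen replicate 1 or 4, 0 without GFP spleen replicate 2 or lymph node replicate 1, and 1 with the intronic control covariate.

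Chemokine and complement genes rose in part. Of 15 inflammatory chemokines 7 were higher in lymph node and none in spleen, against 12.5% and 5.21% of all genes tested. Ccl8, a monocyte attractant, was 4.43 and 4.86 in spleen and 10.31 and 10.46 in lymph node (5.74, SE 0.54, 53.5-fold), and Ccl12 was 4.14 and 3.41 against 8.04 and 8.24 (4.36). Both were near background in spleen. Ccl5 (2.18), Cxcl16 (2.06) and Ccl9 (1.78) were already above background in spleen. Of 15 complement genes 7 were higher in lymph node, with the terminal component C7 (2.37) and the classical pathway protease C1ra (1.78) largest. Complement calls fell to 3 without any 1 of the 4 GFP arrays and to 2 with the intronic control covariate, and they were 11 without either or both of the libraries labelled oncogenic Vav1 lymph node. Hp, haptoglobin, which binds free haemoglobin and is also made in fat, was 7.54 and 7.43 against 11.69 and 11.68 (4.21, SE 0.17).

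Vessel genes that mark the lymph node were fewer. Glycam1, the sulphated mucin of high endothelial venules that L-selectin on lymphocytes binds, was 4.32 and 4.53 in spleen and 8.56 and 8.71 in lymph node (4.21, SE 0.41, 18.5-fold). It was near background on both spleen arrays. In all, 4 of 13 tested high endothelial venule genes were higher in lymph node, against 12.5% of all genes tested. Beside Glycam1 they were Cd300lg (1.29), Apoe (1.11) and Il6st (0.94). The 9 not called ran from Madcam1 (-0.87) to Lifr (0.4), with Gcnt1 (-0.38) and Fut7 (0.18) between them. The sulphotransferase Chst4, the other defining marker, was near background in both tissues and was not tested. Of 11 tested lymphatic endothelium genes 4 were higher in lymph node: Lyve1 (3.75), which sinus macrophages share, Mmrn1 (1.59), Fgl2 (1.31) and the lymphatic master regulator Prox1 (0.77, adjusted p = 0.049, and 0.062 with the animal as a random block). The lymphatic count was 1 without GFP spleen replicate 1 or lymph node replicate 1. Of 12 tested genes of splenic sinus and vessel endothelium, 6 were higher in lymph node and none in spleen. Calls included Lrg1 (2.56), the tight junction gene Cldn5 (1.72) and Fabp4, which the white fat list shares. The other 6 did not pass and lay between -1.37 (Tspan8) and 0.19 (Clec4g), with Stab2 at -0.72. Of 12 tested smooth muscle and pericyte genes 3 were higher in lymph node, Rgs5 (2.94), Mcam (2.19) and Synpo2 (1.24), and the list median was -0.03. Values of the 9 that did not pass lay between -0.38 (Kcnmb1) and 0.59 (Des), with Acta2 at 0.13.

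Stromal chemokines that place lymphocytes went in both directions. Ccl19, a T zone chemokine, rose by 1.20 (8.18 and 7.89 against 9.25 and 9.22, adjusted p = 0.037), and Il7 (1.21) and Grem1 (1.74), products of fibroblastic reticular cells, rose with it. Cxcl13, the B cell follicle chemokine, was 12.47 and 12.56 in spleen and 11.71 and 11.83 in lymph node, a fall of 0.74 (adjusted p = 0.0097). In the list of reticular and homeostatic genes 3 of 16 were higher in lymph node and 2 in spleen, where 12.5% and 5.21% of all genes tested were. The count of 3 was 10 without either or both of the libraries labelled oncogenic Vav1 lymph node.

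T cell transcripts lay higher on both lymph node arrays, and the number that passed changed with the arrays in the fit. All 18 tested T cell genes lay above spleen on both arrays (such non-overlap held for 34.2% of genes tested), and 9 passed (median 0.97). Cd4 was 8.28 and 8.23 in spleen and 9.52 and 9.62 in lymph node (1.32, SE 0.27, adjusted p = 0.008). Cd8b1 was 9.37 and 9.49 against 10.85 and 10.84 (1.41), so genes of CD8+ T cells, which were not transferred, rose too. Cd3g rose by 1.38, while Cd3e differed by 1.08 and missed the threshold (adjusted p = 0.095). The count was 1 without GFP spleen replicate 1, 3 without spleen replicate 2, 0 without lymph node replicate 1, 2 without lymph node replicate 2, and 5 without oncogenic Vav1 spleen replicate 1 or 4. It was 17 without either or both of the libraries labelled oncogenic Vav1 lymph node, and 0 with the intronic control covariate.

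Among T cell subsets, each count stands against the 12.5% of all genes tested that were higher in lymph node. Of 9 regulatory T cell genes 3 were: the receptors Tnfrsf4 (1.79) and Ctla4 (1.31), and Gpr83 (1.14). Without GFP spleen replicate 1 or lymph node replicate 1 none of them passed, and without both libraries labelled oncogenic Vav1 lymph node 5 of the 9 did. Of 19 Th1 and cytotoxic genes 5 passed, led by Ccl5 (2.18), Cxcr6 (1.51) and Ctsw (1.34). That count was 2 without GFP spleen replicate 1 or lymph node replicate 1, 10 without either or both of the libraries labelled oncogenic Vav1 lymph node, and 0 with the intronic control covariate. Naive T cell genes gave 3 of 11 (Igfbp4 at 1.35, Dapl1 at 1.45 and Lef1 at 0.98). In the follicular helper list, the costimulator Icos rose by 1.44, while Cxcr5 (-1.40) and Btla (-1.03), which B cells also carry, were higher in spleen. Vav1 itself, the gene whose oncogenic form the other animals received, was 9.63 and 9.83 in spleen and 9.52 and 9.69 in lymph node, and did not pass (-0.12, SE 0.24, adjusted p = 0.78).

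**Figure D4:**
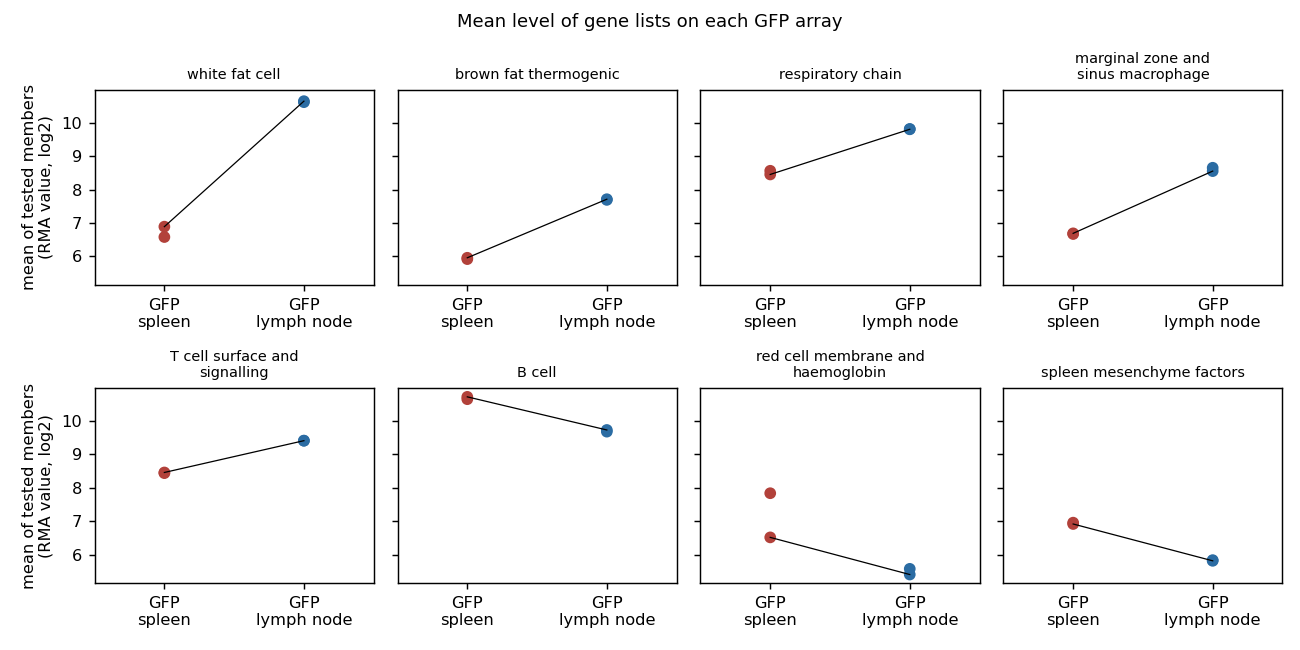
Mean RMA value (log2) of the tested members of 8 gene lists on each GFP array (red, spleen; blue, lymph node); the line joins the 2 arrays of the animal CTL2. The arrays of the tissues do not overlap in any of the 8 panels, and the red cell list is the 1 in which spleen replicates (6.52 and 7.84) lie farther apart than spleen replicate 1 and the nearer lymph node array (5.58).

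Of the genes named as higher in spleen, the largest difference was that of Coch, which encodes the matrix protein cochlin. It was 10.16 and 10.45 in spleen and 5.24 and 5.95 in lymph node, a fall of 4.71 toward lymph node (SE 0.38, 26.2-fold, adjusted p = 2e-05). Its mean in lymph node was near background, as were those of Tcf21, Tlx1, Gdpd2 and Dll1. The transcription factors of the embryonic spleen mesenchyme followed: Tcf21 was 6.93 and 7.01 against 4.76 and 4.65 (-2.26), Wt1 differed by -1.14 and Tlx1, without which no spleen forms, by -1.13 (6.98 and 6.56 against 5.45 and 5.84). Of 11 tested members of this list, 5 were higher in spleen, against 5.21% of all genes tested, and none in lymph node. Nkx2-3 had the same sign and missed the threshold (-0.88, adjusted p = 0.095). The count was 3 without GFP lymph node replicate 1 and 3 with the intronic control covariate, and 7 without both libraries labelled oncogenic Vav1 lymph node. Outside the list, Gdpd2, a glycerophosphodiester phosphodiesterase, was 8.77 and 8.52 against 5.46 and 5.84 (-3.0), and Dll1, the Notch ligand that marginal zone B cells need, was 7.42 and 7.44 against 5.32 and 5.41 (-2.06).

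B cell transcripts were higher in spleen. Of 15 tested B cell genes 12 passed and all 15 lay below spleen on both lymph node arrays (33% of genes tested did), with a median of -0.92. Ms4a1, which encodes CD20, was 10.61 and 10.71 in spleen and 9.37 and 9.27 in lymph node (-1.34, SE 0.17, adjusted p = 0.00034), and the lineage factor Pax5 differed by -1.43. Cd79a, though it stood among the brightest genes in both tissues, was 11.92 and 11.64 against 10.86 and 11.04 (-0.83, adjusted p = 0.039). The count of 12 was 4 without GFP spleen replicate 1 or lymph node replicate 1, and 5 without spleen replicate 2 or lymph node replicate 2. It was 15 without both libraries labelled oncogenic Vav1 lymph node.

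Marginal zone B cell genes gave 7 of 13 calls, all higher in spleen, where 5.21% of all genes tested were, with a list median of -0.75. Cr2, the complement receptor CD21, was 11.46 and 11.49 in spleen and 9.41 and 9.52 in lymph node (-2.01, SE 0.23). Fcrl5 was 8.16 and 8.47 against 5.54 and 6.15 (-2.46), and the Notch target Dtx1 (-1.82), the sphingosine receptor S1pr3 (-1.63) and Notch2 (-0.75) passed. Without GFP lymph node replicate 1 the count was 3 and without any 1 of the other 3 GFP arrays it was 4. Of 10 tested plasma cell genes 3 were higher in spleen: Mzb1 (-1.88), the joining chain Jchain (-1.57) and Irf4 (-0.72). That count was 1 without GFP lymph node replicate 1 and with the intronic control covariate. None of 7 germinal centre B cell genes passed in limma at the adjusted threshold, and 2 of them, S1pr2 (0.63) and Mybl1 (0.67), had an unadjusted p under 0.05. Both passed without both libraries labelled oncogenic Vav1 lymph node.

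Most MHC class II genes lay lower in lymph node, and few passed. Of 9 tested genes 7 lay below spleen on both lymph node arrays (33% of genes tested did) and 1 lay above (34.2% did). The list median was -0.47. In limma 3 were higher in spleen, against 5.21% of all genes tested: H2-Oa (-0.95), H2-Ob (-0.89) and H2-DMb2 (-0.67). H2-Oa and H2-Ob form the regulator DO of B cells. H2-Eb1, a chain of the presenting molecule itself, was 11.43 and 11.38 in spleen and 11.29 and 11.31 in lymph node (-0.11, adjusted p = 0.85). The count of 3 was 1 without GFP spleen replicate 1, lymph node replicate 2 or oncogenic Vav1 spleen replicate 4, 0 without GFP spleen replicate 2 or lymph node replicate 1, 5 without either or both of the libraries labelled oncogenic Vav1 lymph node, and 7 with the intronic control covariate.

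Red pulp macrophage genes did not move together. Of 14 tested members 5 were higher in spleen and 1 in lymph node, against 5.21% and 12.5% of all genes tested. Slc40a1, the iron exporter ferroportin, was 9.68 and 9.31 in spleen and 7.58 and 7.47 in lymph node (-1.97, SE 0.45, adjusted p = 0.013). Fcna (-2.12), Treml4 (-1.34), Gpr141 (-0.96) and Mertk (-0.70) were the others, and Cd5l was the member higher in lymph node (0.74). The defining factor Spic was 8.59 and 8.88 against 8.61 and 8.55 and Vcam1 was 9.88 and 9.89 against 9.64 and 9.83. Neither passed (adjusted p = 0.48 and 0.63). The count of 5 was 2 without GFP spleen replicate 1 or lymph node replicate 1, 1 without lymph node replicate 2, and 3 with the intronic control covariate.

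All 9 tested red cell membrane and haemoglobin genes were lower on both lymph node arrays than on both spleen arrays. So were 9 of 16 haem and erythroid genes, and 33% of genes tested. The spleen replicates lay far apart, and few of these red cell genes passed. Slc4a1, the anion exchanger band 3 of red cells, was 9.09 and 10.53 in spleen and 7.45 and 7.58 in lymph node (-2.29, SE 0.55, adjusted p = 0.016), the only call among 9 tested membrane and haemoglobin genes. That count was 0 without GFP spleen replicate 2, without either GFP lymph node array and with the intronic control covariate, 6 without both libraries labelled oncogenic Vav1 lymph node, and 9 with the 4 GFP arrays alone. Rhag was 5.41 and 7.63 against 4.22 and 4.47 (-2.18, adjusted p = 0.16). Of 16 haem and erythroid genes, Car2, Alas2 and Car1 passed. Alas2, the first enzyme of haem synthesis in red cells, was 8.89 and 9.97 against 6.64 and 6.56 (-2.83). Car2, carbonic anhydrase 2, was 8.95 and 10.85 against 6.81 and 7.16 (-2.92). Without GFP spleen replicate 2 or either GFP lymph node array, none of these 3 passed, and none did with the intronic control covariate. Without either or both of the libraries labelled oncogenic Vav1 lymph node 6 of the 16 passed, and with the 4 GFP arrays alone 8 did.

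Platelet genes were led by Ppbp, which encodes pro-platelet basic protein, a chemokine stored in platelet granules. It was 9.22 and 9.50 in spleen and 4.95 and 4.76 in lymph node, near background (-4.50, SE 0.46, 22.6-fold, adjusted p = 8.1e-05). Of 13 tested genes 5 were higher in spleen, against 5.21% of all genes tested. Beside Ppbp they were Gp5 (-1.43), Gp6 (-1.27) and Gp9 (-0.71), glycoproteins of the platelet surface, and the platelet tubulin Tubb1 (-1.25). Mmrn1, which lymphatic endothelium shares, was higher in lymph node. Pf4 was 8.18 and 8.04 against 7.31 and 7.45 and missed the threshold (-0.73, adjusted p = 0.095). The count of 5 was 2 without any 1 of the 4 GFP arrays, 3 without oncogenic Vav1 spleen replicate 1, 2 or 3, 3 with the animal as a random block (Gp6 and Gp9 did not pass), and 1 with the intronic control covariate.

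Red cells and platelets arise from a shared precursor in which the factor GATA1 acts, and the promoters of 3 genes of these groups are shown for the letters AGATAA, which this family of factors prefers. Both strands were searched, and a match on the opposite strand reads TTATCT. Each is the 120 bases before the start (RefSeq, GRCm38.p6, 5′ to 3′), with matches in capitals: chrX:150547297-150547416, plus strand (Alas2), chr16:30310782-30310901, minus strand (Gp5), and chr5:90768398-90768517, plus strand (Ppbp).
Alas2: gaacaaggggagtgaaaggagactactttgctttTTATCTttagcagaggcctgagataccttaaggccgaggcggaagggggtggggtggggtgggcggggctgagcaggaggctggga
Gp5: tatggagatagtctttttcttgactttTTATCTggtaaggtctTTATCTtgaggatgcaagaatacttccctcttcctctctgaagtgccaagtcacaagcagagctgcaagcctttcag
Ppbp: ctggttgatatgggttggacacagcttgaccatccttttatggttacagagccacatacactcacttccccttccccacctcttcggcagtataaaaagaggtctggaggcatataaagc

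Alas2 holds 1 match, Gp5 holds 2 and Ppbp none in its 250 bases before the start. Over 250 bases, the letters occur in 4 of 10 red cell promoters (40%), 3 of 12 haem and erythroid promoters (25%) and 3 of 13 platelet promoters (23.1%), and in 9.99% of all 32851 promoters. These shares cover list members whether or not they differed between the tissues. Of the members with a match, only Alas2, Gp5 and Gp6 passed in the tissue comparison. The red cell genes Epb42, Kel and Rhd, which hold a match, did not. A match here is a run of letters, not a bound site.

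Next, the difference between tissues on the GFP arrays was set against that on the oncogenic Vav1 arrays. In oncogenic Vav1, 9 of 13393 genes differed between the libraries labelled lymph node and those of spleen (0.0672%), all higher in lymph node. The interaction, a test of the difference of differences, passed for 1235 genes (9.22%), of which 1072 (8%) were more positive in GFP and 163 (1.22%) more negative. That count was 639 without GFP spleen replicate 1, 786 without spleen replicate 2, 532 and 547 without lymph node replicate 1 and 2, 803 without oncogenic Vav1 spleen replicate 1, 4032 without lymph node replicate 1 of oncogenic Vav1 and 1947 without its lymph node replicate 2.

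Fat transcripts differed less between the tissues in oncogenic Vav1 for most members of both fat lists: the interaction was positive and passed for 12 of 18 white fat genes and 10 of 15 brown fat genes. Ucp1 was 3.94 and 3.69 in the libraries labelled oncogenic Vav1 lymph node and 3.63 to 3.96 in oncogenic Vav1 spleen, so the interaction was 6.43 (SE 0.23, adjusted p = 6.1e-07). The brown fat list had a median difference of 0.00 in oncogenic Vav1, against 1.70 in GFP. The white fat list had 1.23 there, against 4.11. The interaction passed for Pnpla2 (3.36), Lipe (2.76) and Plin1 (2.48). Adipoq was 4.52 in oncogenic Vav1 spleen and 9.29 in the libraries labelled lymph node (means), and its interaction did not pass (0.84, adjusted p = 0.42). White fat RNA was therefore present in the latter, while their spleen mesenchyme list stood at a median difference of 0.03.

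The chemokines Ccl8 and Ccl12 had the largest interactions beside Ucp1 and the Mup genes, and both were high in oncogenic Vav1 spleen. Ccl8 was 9.64 to 10.58 there, 10.12 and 7.97 in the libraries labelled lymph node, 10.31 and 10.46 in GFP lymph node and 4.43 and 4.86 in GFP spleen. GFP spleen was the only low group. For Coch (interaction -4.76), Ppbp (-4.89), Alas2 (-3.57), Gdpd2 (-3.0) and Slc4a1 (-2.74), GFP lymph node was the only low group. Mup19 was 12.08 and 11.97 in GFP lymph node, 6.42 on average in the libraries labelled oncogenic Vav1 lymph node and 3.55 in oncogenic Vav1 spleen.

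**Figure D5:**
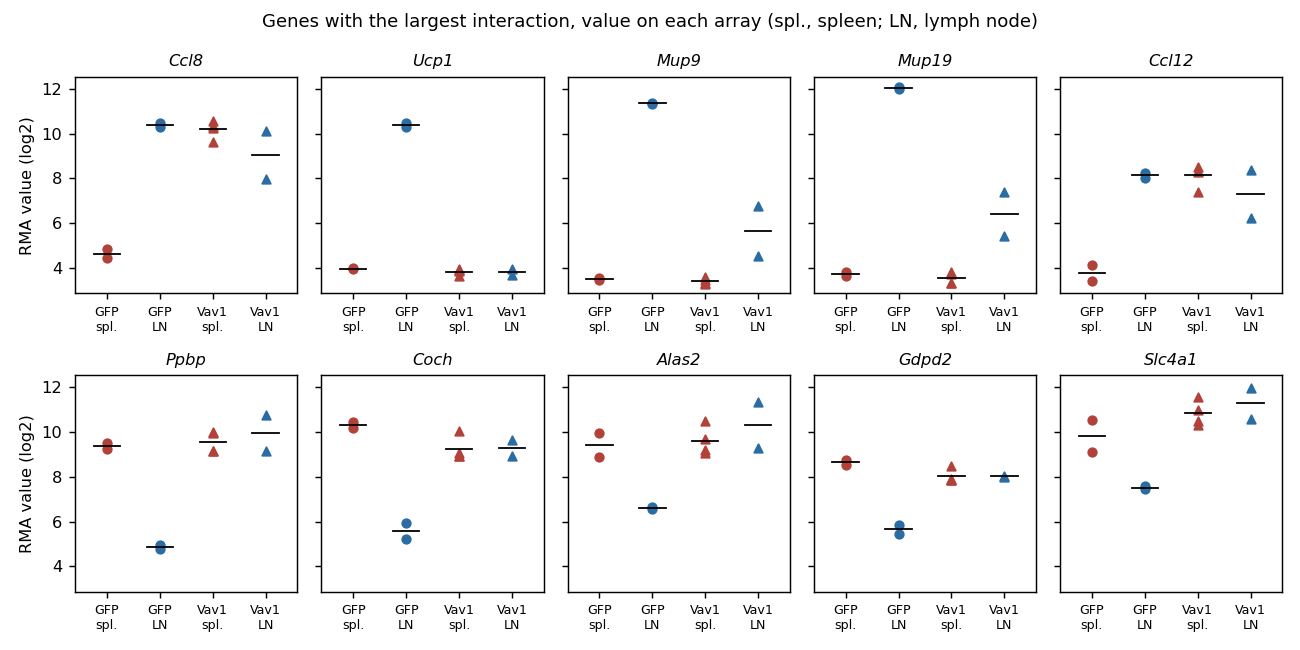
RMA value (log2) of the 10 genes with the largest interaction on each of the 10 arrays (red, spleen; blue, lymph node; circles, GFP; triangles, oncogenic Vav1; bars, group means). In the lower row the libraries labelled oncogenic Vav1 lymph node lie at spleen level (Coch 8.93 and 9.64), while GFP lymph node lies below every other group.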

How the data were processed

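Total RNA was hybridised to Affymetrix mouse arrays. The deposited log2 values were made by the authors with RMA in R 3.6.3, per the submitters' processing notes. Of 29129 probe sets 19572 name a gene. The probe set with the highest mean stood for a gene, and genes above the 40th percentile of their own array on at least 2 arrays were kept. limma 3.58.1 (lmFit, eBayes with a variance trend, R 4.3.3) fitted the 4 groups over all 10 arrays, which leaves 6 residual degrees of freedom, with Benjamini-Hochberg adjustment over all 13393 genes. On simulated data with 100 genes changed at each size, the tissue contrast called 65% of those at a log2 change of 1 and 93% of those at 2. Replicate numbers do not pair animals, and deviations of same-numbered GFP arrays correlated at -0.03. Named genes were the 15 largest called each way without overlap, the 5 largest interactions each way, and of each of 51 lists up to 6 members with the smallest p, up to 4 further ones with the largest differences, the first 4 members, and Vav1 itself. Predicted genes, olfactory and vomeronasal receptors, receptor and immunoglobulin segments and small RNAs were left out of the ranking. Genes outside that rule are Alb, Apoa1, Prdm16, Zic1, Lhx8, Ppargc1a and Elovl5, which were chosen after their values were seen, and so was the search for AGATAA. The members and lists were chosen with earlier results of these data known.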

Additional observations from a re-analysis of the deposited data

Results flagged for a closer look

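The test of whether the lymph node minus spleen difference was the same in GFP and in oncogenic Vav1 picked out 1235 of 13393 genes (limma, 9.22%). The largest positive interactions were those of Ccl8 (6.89), Ucp1 (6.43), Mup9 (5.58), Mup19 (5.43) and Ccl12 (5.21), and the largest negative ones those of Ppbp (-4.89), Coch (-4.76), Alas2 (-3.57), Gdpd2 (-3.0) and Slc4a1 (-2.74). All of these rest in part on the libraries labelled oncogenic Vav1 lymph node, whose Coch and spleen mesenchyme levels were those of spleen. The part of that in the interactions was not tested.

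Within oncogenic Vav1 spleen, 1 array (replicate 3) stood apart from the other 3 for Coch, at 10.03, and for Gdpd2, at 8.49, both higher. Chance alone sets 1 sample apart by this measure in about 1 of 20 groups. Spleen replicate 3 came from ONCO3, which also gave lymph node replicate 2 of oncogenic Vav1.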

How the results depend on the processing

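The number of genes called depended on which arrays set the spread. It was 4275 (2648 higher in lymph node, 1627 in spleen) with the 4 GFP arrays alone, 4158 (2589 and 1569) with array weights, and 4066 (2565 and 1501) without both libraries labelled oncogenic Vav1 lymph node, a setting chosen after seeing the data. It was 1317 with the intronic control covariate, 819 of them higher in lymph node, and the interaction then had 625. Leaving out 1 array at a time gave 1009 to 4061 genes, 840 to 2562 higher in lymph node and 169 to 1499 in spleen, and 532 to 4032 for the interaction. The cause of these shifts was not tested. Median centring gave 405 genes higher in spleen. With the replicate number as a block, 1871 genes were called, 453 of them higher in spleen, and 762 for the interaction. The numbers do not pair animals. With the animal as a random block, 2144 genes were called (1554 and 590), all among the 2377, and 1077 for the interaction. That block links the 2 arrays of CTL2 and, in oncogenic Vav1, the 2 of ONCO2 and the 2 of ONCO3. Of the genes named, Cd3e turned to -0.24, Pf4 to 0.18, Elovl5 to -0.07 and Lhx8 to -0.04 with the intronic control covariate, Csf1r to -0.55 with that covariate, -0.04 with quantile normalization and -0.03 to 0.07 when 1 array was left out (lowest without GFP spleen replicate 2), and Lyz2 to 0.04 with median centring. None of these 6 genes passed in any of those settings. White fat, brown fat, beta-oxidation, sinus macrophage and migratory dendritic cell counts moved by at most 1.5 times under every setting run.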

Other observations

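Of 8 tested mast cell and basophil genes 3 were higher in GFP lymph node, against 12.5% of all genes tested. They were the protease genes Mcpt4 (3.21) and Cpa3 (2.70) and the tryptase Tpsb2 (0.93). The basophil protease Mcpt8 was higher in spleen (-0.61). The other 4 did not pass, among them Kit (0.05), which with Cpa3 was set as a defining mast cell marker. Pmp22 (2.69), a myelin protein gene, and the sodium channel Scn7a (1.94) were the 2 of 7 nerve and Schwann cell genes that rose, and the first of them is also made by fibroblasts. Amy1, an amylase of salivary gland, was 4.56 and 4.51 in spleen and 9.53 and 9.33 in lymph node (4.89). It was near background in spleen, and it was the only 1 of 7 tested epithelium and salivary gland genes higher in lymph node. The keratin Krt7 was higher in spleen (-0.70).

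Of 17 tested immediate early and heat shock genes, 6 were higher in lymph node, against 12.5% of all genes tested. All 6 were immediate early genes, which respond within minutes to handling as well as to receptor signals. They were Dusp1 (7.77 and 7.85 against 9.84 and 9.83, 2.03), Egr1 (1.54), Fos (1.43), Jun (1.40), Junb (0.93) and Ier3 (0.84). The heat shock gene Hsph1 was higher in spleen (-0.89). The count of 6 was 3 without GFP spleen replicate 2 or either GFP lymph node array, and 2 with the intronic control covariate.

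Of 14 tested Hox genes, which mark position along the body, 3 were higher in lymph node, where 12.5% of all genes tested were. Hoxc8 (1.66), Hoxc6 (1.05) and Hoxb7 (0.56) passed and the other 11 did not. Among 15 tested genes of iron handling, transferrin Trf (1.49) and the ferritin chain Fth1 (0.48) were higher in lymph node beside Hp, and ferroportin was higher in spleen. The count of 3 was 6 without both libraries labelled oncogenic Vav1 lymph node. Of 18 interferon response genes 3 were higher in lymph node, Igtp (0.74), Usp18 (0.72) and Ifit1 (0.57), a share (3 of 18) close to the 12.5% of all genes tested. None of the 18 passed without GFP spleen replicate 1 or lymph node replicate 1, 8 did without both libraries labelled oncogenic Vav1 lymph node, and 9 did with the 4 GFP arrays alone. None of 24 proliferation genes passed in limma (2 had an unadjusted p under 0.05), and their median difference was 0.02. None of 7 tested skeletal muscle genes passed either (median -0.09).

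The 4 arrays come from 3 animals, which limits the precision of every value. The median spread between replicates was 0.125 in GFP spleen and 0.0836 in GFP lymph node (SD, log2), against 0.233 in the libraries labelled oncogenic Vav1 lymph node.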
